A study of Sus scrofa with 92 samples.

Results

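The circadian clock genes were described in pig liver through hemorrhagic shock and resuscitation. Members were the rows of the count table whose pig Ensembl identifier carries 1 of 10 symbols (PER1, PER2, PER3, CRY1, CRY2, ARNTL, CLOCK, NPAS2, NR1D1 and USP2). Of the 25322 identifiers in the table, 10 rows were found for 9 symbols. PER2 had 2 identifiers (ENSSSCG00000016338 and ENSSSCG00000023854), ARNTL is listed under its other name BMAL1, and PER3 was not analysed here. The names of NR1D1 (ENSSSCG00000017481) and of the second PER2 identifier come only from the gene tables of the study. All 10 rows passed the filter on low counts in the fit of changes over time, in which 13667 genes were tested.

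The circadian clock is a feedback loop of transcription that runs in nearly every cell, the hepatocyte included. ARNTL pairs with CLOCK or with its paralog NPAS2 and activates genes that carry an E-box, among them the period (PER) and cryptochrome (CRY) genes, whose proteins come back to repress the pair. NR1D1 (REV-ERB alpha) represses ARNTL in a second loop, and USP2, a deubiquitinase, is a rhythmic output of the clock. In the liver these genes cycle with the hour of the day, and feeding and glucocorticoids can shift or induce some of them, PER1 in particular.

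Liver biopsies came from juvenile male Yorkshire-Landrace pigs that all went through the same injury protocol. Each was fasted overnight, anesthetized and splenectomized, received blunt chest trauma and a liver crush, was bled, and was then resuscitated with fluids and its shed blood under ventilation. The 18 fasted (FS) animals had nothing more, and the 5 carbohydrate prefed (CPF) animals received a bolus of sugar syrup before induction of anesthesia. A peripheral piece of liver was taken at Baseline (B) and at 2, 8 and 20 hours after resuscitation began (FR2, FR8 and FR20). The paper places B once an animal had stabilized from instrumentation, and lists the trauma and bleeding after instrumentation. B was thus liver under anesthesia before the trauma, and the later timepoints followed it. Each animal serves as its own control, and no uninjured or sham group is used here. There were 88 libraries in the comparisons: 15 FS animals at B and 18 at each later timepoint, and 5 CPF animals at each timepoint but FR8, which had 4. Left out were 3 FS Baseline libraries without albumin (animals 17, 19 and 21) and the FR8 library of CPF animal 3, which held 4388 counts. Clock time of the biopsies is not in the labels, so the hour of the day and the time after injury, anesthesia and resuscitation cannot be told apart in any change below.

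The timepoint on the labels was checked on genes outside the clock. The profile of each library over 10909 other genes was correlated with the median profile of each timepoint in the other animals, and 70 of the 88 libraries were nearest to their own timepoint. The other 18 libraries, from 8 animals, were nearest to another timepoint, and 14 of them had a negative correlation with the timepoint on their label. In animals 17, 19 and 21 the library labelled FR2 was nearest to FR8, the library labelled FR8 to B and the library labelled FR20 to FR2. In animal 10 the libraries labelled B, FR2 and FR8 were nearest to FR8, FR20 and FR2, and in animal 9 the libraries labelled FR8 and FR20 were each nearest to the other timepoint. In CPF animal 13 the library labelled FR20 was nearest to B and the library labelled FR8 was closer to FR20 by less than 0.001 in r. The libraries labelled B of animal 4 and FR20 of animal 20 were nearest to FR20 and FR8, by 0.138 and 0.246 in r. Albumin, the main plasma protein made by hepatocytes, was 119713 to 170818 CPM (counts scaled to a common library total) in the 13 FS Baseline libraries nearest to B and 32581 to 60752 CPM in the 13 FS libraries labelled FR8 that were nearest to FR8, and it stood at 131892, 119967 and 135001 CPM in the libraries labelled FR8 of animals 17, 19 and 21.

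**Figure D1:**
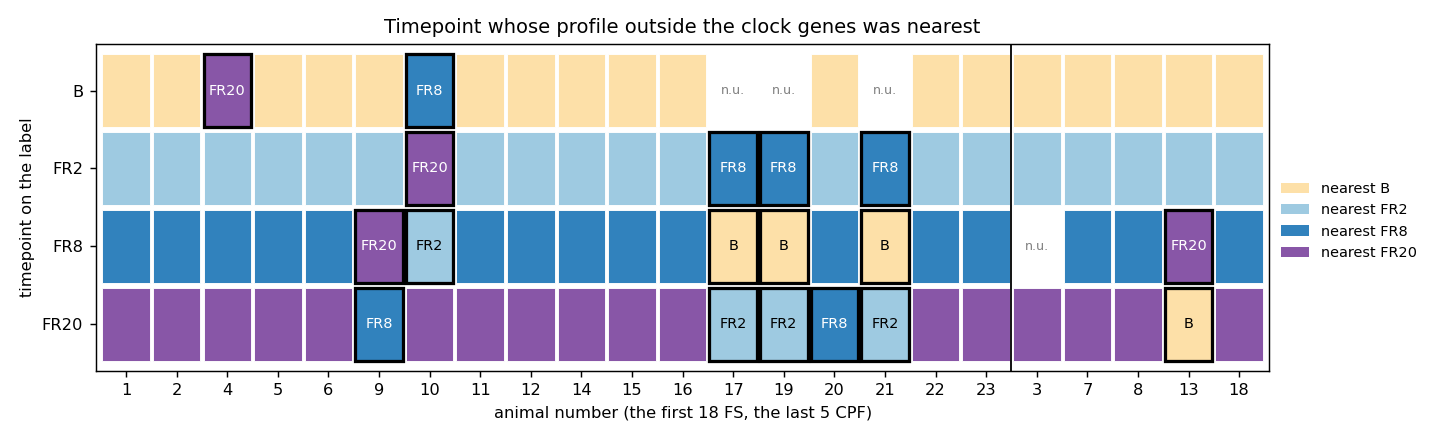
Timepoint to which each library was nearest by the correlation of genes outside the clock, for each animal (horizontal) and the timepoint on its label (vertical). Color gives the nearest timepoint, framed squares with a name are the 18 libraries nearest to another timepoint than their label, and n.u. marks the 4 libraries not used; the framed squares fall in 8 of the 23 animals.

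All libraries kept the timepoint on their label, and a timepoint named here is the one on the label. Changes are from all 88 libraries unless a sentence names the 70 libraries that were nearest to their own timepoint. The second set was chosen after the data were seen, and libraries picked for likeness to their timepoint differ less among themselves by construction, which lowers its p-values as well. Why 18 libraries were nearest to another timepoint was not tested.

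The 88 libraries held 6877120 to 16613300 counts (median 12072000). Hepatocyte markers were high in every group, with 7 of 8 listed markers found. Albumin is a listed marker and libraries without it had been left out, so these levels are no independent check of the tissue. In FS animals the summed level of these markers had a Baseline median of 209924 CPM (lowest 86477, highest 237410). The median was 146323 CPM (57486 to 179162) at FR2, then 87257 (58524 to 206998) at FR8, and lowest at FR20 with 54621 (24587 to 163382). Neutrophil markers (5 of 6 found, CSF3R at 0 counts in every library) summed to a Baseline median of 7.79 CPM (5.25 to 22.2), with FR2 at 20.8 (8.03 to 68.3), FR8 at 12.5 (3.85 to 39.0) and FR20 at 11.7 (4.44 to 55.1). Kupffer cell and macrophage markers (4 of 6 found) had a median of 1472 CPM (967 to 2042) at B and 970 (622 to 1756) at FR8, and erythroid markers (3 of 4 found) 256 CPM (99.6 to 1119) at B and 121 (0.54 to 2314) at FR8. Striated muscle markers (7 of 10 found) had medians of 12.1 to 21.3 CPM over the 4 timepoints, with single libraries from 7.54 to 175 CPM. Medians were 22.4 to 25.8 CPM for T and NK cell markers, 123 to 138 for endothelial markers and 15.4 to 24.7 for cholangiocyte markers. These levels moved over the same times as the clock genes, and their part in the results was not tested. In bulk tissue, fewer cells of a type and less RNA per cell cannot be told apart.

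The clock genes of fasted animals changed in different directions at different times. By group medians, the period genes and USP2 were high at B and low at FR8, and CRY1 was highest at FR2. The medians of the activators ARNTL and NPAS2 were highest at FR8, and those of CRY2 and NR1D1 at FR20. The CRY1 change from B to FR2 (edgeR adjusted p = 0.0586) and the CRY2 change from B to FR20 (adjusted p = 0.0782) did not reach 0.05. With edgeR (adjusted p under 0.05 over all genes tested), 4 of 10 rows passed at FR2 against B (FR2vB; 1 up, 3 down), where 41.4% of all genes passed. At FR8vB 8 passed (2 up, 6 down) against 39.3% of all genes, and at FR20vB 6 passed (1 up, 5 down) against 33.8%. Between successive later timepoints, 4 passed at FR8vFR2 (all down; 28.4% of all genes) and 6 at FR20vFR8 (3 up, 3 down; 6.39% of all genes). In the 70 libraries the counts were 8 at FR2vB (52.5% of all genes), 9 at FR8vB (55.1%), 7 at FR20vB (44.9%), 7 at FR8vFR2 (49.2%) and 9 at FR20vFR8 (32.2%). At FR2vB with all libraries the 4 of 10 rows that passed were close to the share of all genes. The median log2 fold change of the 10 rows was −0.25 at FR2vB, −1.28 at FR8vB and −1.13 at FR20vB, beside −0.04, −0.0016 and 0.04 over all genes tested.

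**Figure D2:**
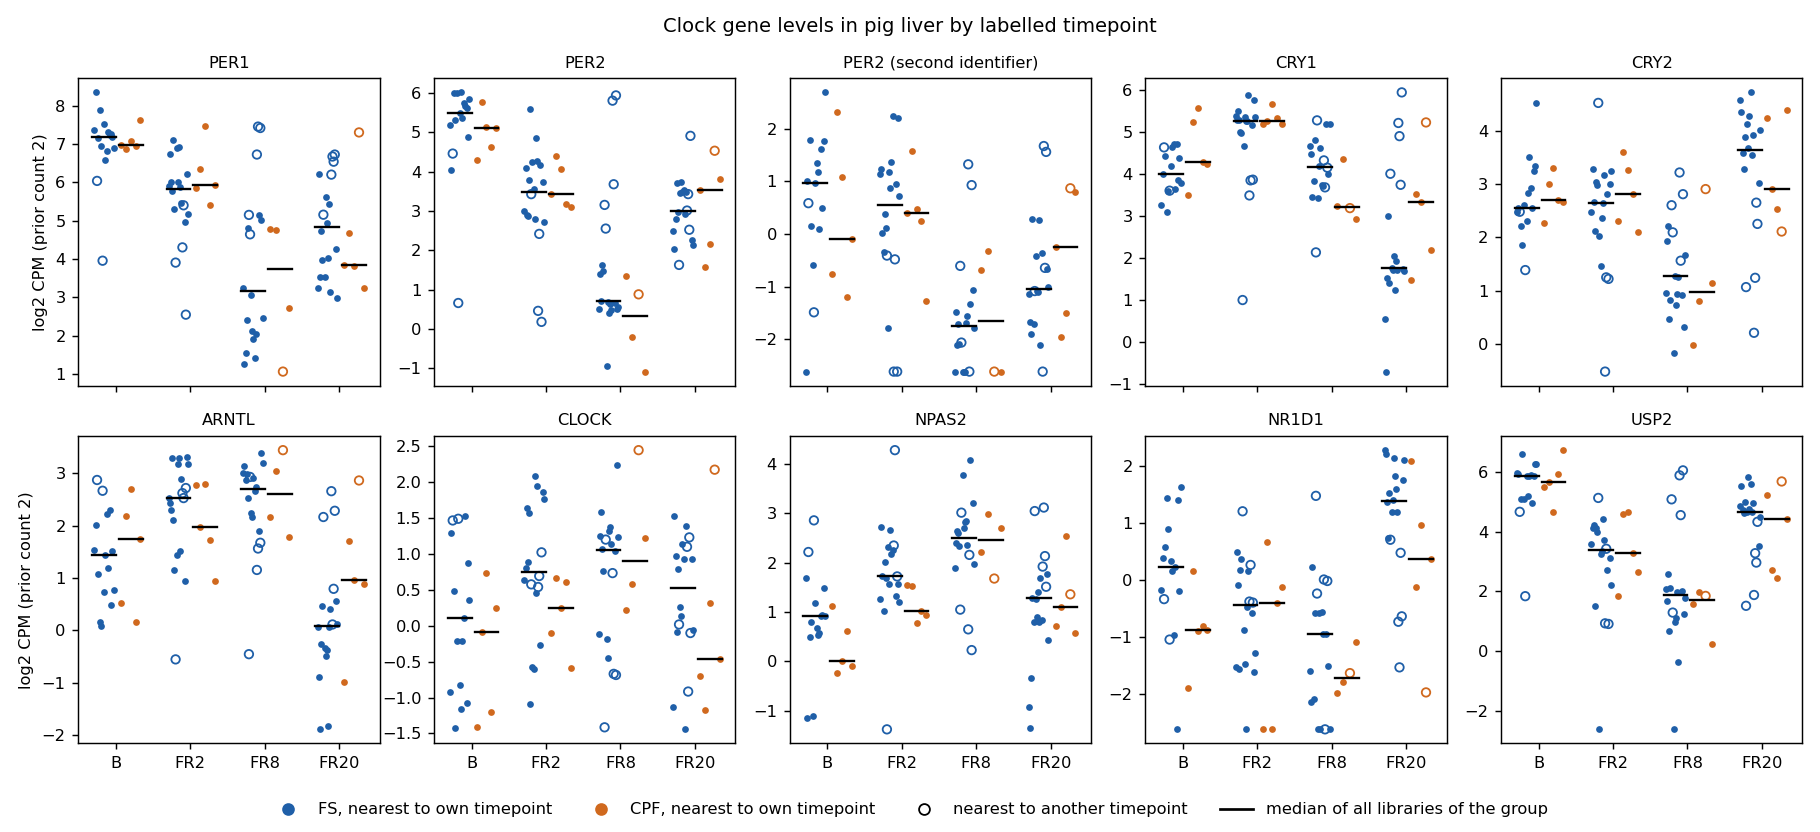
Level of each clock gene in every library (log2 CPM with a prior count of 2) by the timepoint on the label, for FS (blue) and CPF (orange) animals; open circles are the 18 libraries nearest to another timepoint and lines are group medians. PER1, PER2 and USP2 sit high at B and low at FR8, and many of the points far from their group are open circles.

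**Figure D3:**
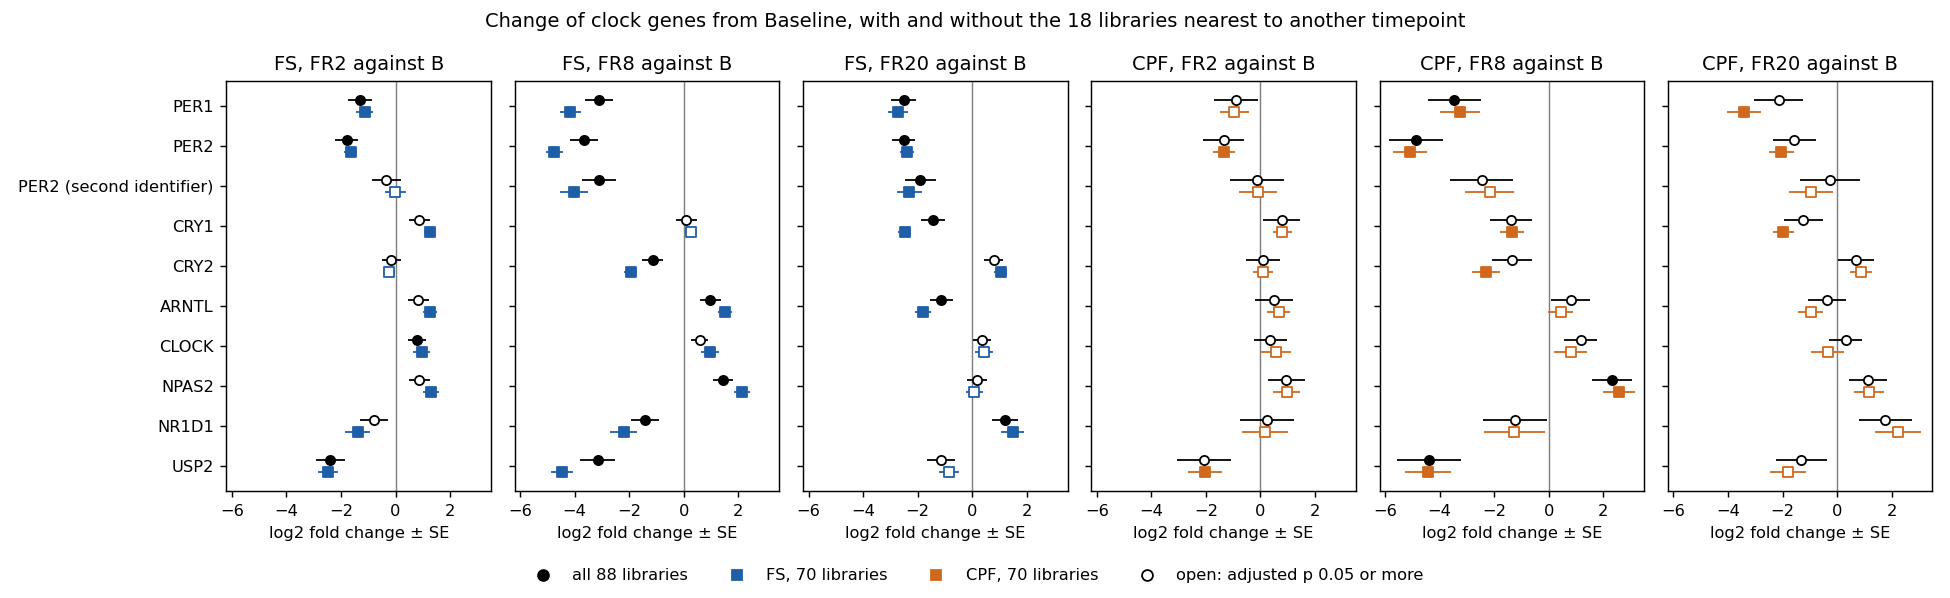
Log2 fold change from Baseline with its standard error for each clock gene at FR2, FR8 and FR20 in FS and CPF animals, from all 88 libraries (circles) and from the 70 libraries nearest to their own timepoint (squares); filled symbols passed an adjusted p of 0.05. In FS animals the PER2 change at FR8 was −3.68 and −4.74 in these fits, and the CRY1 change at FR20 was −1.43 and −2.48.

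PER1 (ENSSSCG00000017983), a repressor of the E-box activators that glucocorticoids can also induce, fell at all 3 times in fasted animals. Its level was 15.3 to 326.0 CPM (median 146) at B, 5.67 to 137 (median 56.6) at FR2, 2.22 to 175 (median 8.77) at FR8 and 7.75 to 106 (median 28.6) at FR20. The ranges overlapped, and the 3 highest libraries labelled FR8 (106, 175 and 171 CPM) were those of animals 17, 19 and 21. Without the 18 libraries, B ran from 94.9 to 326.0 CPM and FR8 from 2.22 to 35.4 CPM, with no overlap. The log2 fold change was −1.31 ± 0.43 (SE) at FR2vB (edgeR adjusted p = 0.0122), −3.12 ± 0.51 at FR8vB (adjusted p = 3.04e-06) and −2.50 ± 0.46 at FR20vB (adjusted p = 2.04e-05), and −1.13, −4.16 and −2.72 in the 70 libraries. PER1 was lower at FR8 than at B in 14 of 15 animals.

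PER2, the partner of PER1 in the repressor complex, had the same order of timepoints under its first identifier (ENSSSCG00000016338). The level was 1.42 to 64.6 CPM (median 45.3) at B, 0.97 to 48.1 (median 11.1) at FR2, 0.36 to 61.3 (median 1.47) at FR8 and 2.93 to 29.95 (median 7.80) at FR20. Among the 70 libraries the highest at FR8 held 2.93 CPM and the lowest at B 16.2 CPM, and FR20 (3.93 to 13.2 CPM) lay between them with no overlap on either side. PER2 fell by 1.79 ± 0.43 on the log2 scale at FR2vB (edgeR adjusted p = 0.00054), by 3.68 ± 0.51 at FR8vB (adjusted p = 3.74e-07) and by 2.52 ± 0.43 at FR20vB (adjusted p = 7.04e-06), and in the 70 libraries the changes were −1.65, −4.74 and −2.39. From FR8 to FR20 its log2 fold change was 1.16 ± 0.45 with all libraries (adjusted p = 0.108) and 2.35 ± 0.29 in the 70 libraries (adjusted p = 7.93e-09), where it was higher at FR20 in 12 of 12 animals.

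The second identifier listed as PER2 (ENSSSCG00000023854) was counted far less often. It had at most 3 counts in 13 of 18 FS libraries labelled FR8, 5 of which had 0, and its medians were 1.79 CPM at B, 1.31 at FR2, 0.134 at FR8 and 0.321 at FR20. The PER2 (second identifier) row fell by 3.12 ± 0.63 at FR8vB (edgeR adjusted p = 6.29e-05) and by 1.90 ± 0.56 at FR20vB (adjusted p = 0.00652), and at FR2vB the log2 fold change was −0.34 ± 0.53 (adjusted p = 0.631). Its changes in the 70 libraries were −4.03 at FR8vB, −2.31 at FR20vB and −0.0020 at FR2vB (edgeR adjusted p = 0.998 for the last). How reads were shared between the 2 PER2 identifiers is not given in the sources used here, and both rows are uncertain to that extent.

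CRY1 (ENSSSCG00000000164), a cryptochrome that represses the activator pair, moved apart from the period genes. In FS animals it was 8.41 to 26.1 CPM (median 15.9) at B, 1.84 to 59.0 (median 37.9) at FR2, 4.23 to 38.5 (median 17.8) at FR8 and 0.453 to 61.2 (median 3.21) at FR20. The 4 lowest libraries labelled FR2 (1.84, 11.1, 14.2 and 14.4 CPM) were those of animals 10, 17, 19 and 21, and the 3 highest labelled FR20 (29.7, 36.9 and 61.2 CPM) were those of animals 19, 17 and 21. CRY1 fell at FR20vB (log2 fold change −1.43 ± 0.44, edgeR adjusted p = 0.00893) and at FR20vFR8 (−1.52 ± 0.41, adjusted p = 0.0165). At FR2vB the change of 0.88 ± 0.38 missed the threshold with all libraries (adjusted p = 0.0586) and was 1.26 ± 0.22 in the 70 libraries (adjusted p = 2.86e-06), where CRY1 was higher at FR2 in 13 of 13 animals. It also passed at FR2vB when any 1 of animals 10, 17, 19 and 21 was left out, with adjusted p from 0.029 to 0.0400. At FR8vB it was 0.09 ± 0.39 (edgeR adjusted p = 0.876), and 0.27 in the 70 libraries (adjusted p = 0.308), where FR20vB was −2.48 and FR20vFR8 −2.75.

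CRY2 (ENSSSCG00000013270), the other cryptochrome, had its lowest median at FR8 and its highest at FR20. Its level in FS animals was 2.45 to 22.8 CPM (median 5.73) at B, 0.531 to 22.99 (median 6.14) at FR2, 0.72 to 9.17 (median 2.25) at FR8 and 0.988 to 26.4 (median 12.3) at FR20. The FR8 and FR20 ranges overlapped with all libraries, and in the 70 libraries FR8 (0.72 to 4.45 CPM) lay below FR20 (8.02 to 26.4 CPM). CRY2 fell by 1.15 ± 0.39 at FR8vB (edgeR adjusted p = 0.0161) and increased by 1.94 ± 0.37 from FR8 to FR20 (adjusted p = 0.000943), and these changes were −1.95 and 2.996 in the 70 libraries. The FR8vB change was −0.98 with adjusted p = 0.0531 without animal 23. At FR20vB it was 0.79 ± 0.36 (adjusted p = 0.0782), and it passed in the 70 libraries (1.04 ± 0.24, adjusted p = 0.000339).

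ARNTL (ENSSSCG00000013397), the activator that CLOCK and NPAS2 share, ran opposite to CRY2 and NR1D1. It was 0.897 to 7.16 CPM (median 2.56) at B, 0.516 to 9.80 (median 5.59) at FR2, 0.564 to 10.3 (median 6.32) at FR8 and 0.105 to 6.15 (median 0.90) at FR20 in FS animals. All 4 ranges overlapped. Among the 70, the lowest library at FR8 (3.56 CPM) was above the highest at FR20 (1.31 CPM). ARNTL increased at FR8vB (log2 fold change 0.98 ± 0.38, edgeR adjusted p = 0.0332) and fell at FR20vB (−1.13 ± 0.42, adjusted p = 0.0321) and at FR20vFR8 (−2.11 ± 0.39, adjusted p = 0.000636). The FR8vB call was lost without any 1 of animals 1, 5, 6, 11, 15, 20, 22 and 23 (adjusted p from 0.0528 to 0.0736), and the FR20vB call without any 1 of animals 1, 2, 4, 10, 12, 14 and 16 (0.0501 to 0.0851). Over the 70 libraries ARNTL was 1.499 ± 0.26 higher at FR8 and 1.79 ± 0.29 lower at FR20 on the log2 scale (log2 fold change −1.79, adjusted p = 1.91e-06), and it also rose at FR2vB (1.28 ± 0.25, adjusted p = 3.42e-05; all libraries 0.84 ± 0.39, adjusted p = 0.0751).

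NPAS2 (ENSSSCG00000008171), the CLOCK paralog, increased at FR8. FS levels were 0.285 to 7.09 CPM (median 1.72) at B, 0.221 to 19.3 (median 3.15) at FR2, 1.01 to 16.8 (median 5.51) at FR8 and 0.227 to 8.51 (median 2.26) at FR20. FR8 overlapped B with all libraries, and in the 70 libraries FR8 (3.54 to 16.8 CPM) was above B (0.285 to 3.08 CPM) throughout. NPAS2 increased by 1.45 ± 0.36 at FR8vB (edgeR adjusted p = 0.00108), was higher in 15 of 15 animals, and fell by 1.27 ± 0.34 from FR8 to FR20 (adjusted p = 0.0146). At FR2vB the value was 0.87 ± 0.38 (adjusted p = 0.0573), and 1.298 ± 0.30 in the 70 libraries (adjusted p = 0.000241). At FR20vB it was 0.18 ± 0.38 (adjusted p = 0.751). The 70 libraries gave 2.12 at FR8vB, −2.04 from FR8 to FR20 and 0.079 at FR20vB.

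CLOCK (ENSSSCG00000008909) varied least over time of the activators. The Baseline median of FS animals was 0.911 CPM (0.21 to 2.73), the FR2 median 1.52 (0.308 to 4.08), the FR8 median 1.91 (0.212 to 4.57) and the FR20 median 1.301 (0.204 to 2.72), and all ranges overlapped in either set. CLOCK increased at FR2vB (log2 fold change 0.78 ± 0.32, edgeR adjusted p = 0.0403), a call lost without any 1 of animals 1, 6, 12, 14, 19, 20, 21, 22 and 23 (adjusted p from 0.0511 to 0.119). At FR8vB it was 0.58 ± 0.31 (adjusted p = 0.126) with all libraries and 0.97 ± 0.32 in the 70 libraries (adjusted p = 0.00952), and at FR20vB 0.36 ± 0.32 (adjusted p = 0.395). Baseline libraries held as few as 2 CLOCK counts, 4 of 15 having at most 3.

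NR1D1 (ENSSSCG00000017481), the repressor of ARNTL, had its lowest median at FR8 and its highest at FR20, on low counts. In FS animals it was 0 to 2.93 CPM (median 1.01) at B, 0 to 2.14 (median 0.576) at FR2, 0 to 2.61 (median 0.356) at FR8 and 0.183 to 4.66 (median 2.45) at FR20. At most 3 counts were found in 8 of 18 libraries labelled FR8, 4 of them at 0, and the highest library of any FS group held 83 counts. NR1D1 fell by 1.42 ± 0.52 at FR8vB (edgeR adjusted p = 0.0243) and increased by 1.21 ± 0.47 at FR20vB (adjusted p = 0.0402) and by 2.62 ± 0.49 from FR8 to FR20 (adjusted p = 0.000636), where the 70 libraries gave −2.21, 1.49 and 3.70. Leaving out animal 5, 20 or 23 took the FR8vB call away (adjusted p from 0.0576 to 0.0740), and so did leaving out any 1 of animals 1, 2, 4, 10, 12, 14, 15, 16 and 22 for FR20vB (0.0558 to 0.0808). In the 70 libraries NR1D1 at FR20 (1.499 to 4.66 CPM) was above FR8 (0 to 1.01 CPM) throughout, and it also fell at FR2vB (−1.38 ± 0.46, adjusted p = 0.0104; all libraries −0.80 ± 0.51, adjusted p = 0.214). In mammals NR1D1 overlaps THRA on the opposite strand. The counting is not stated to use strand, so reads from the overlapping stretch cannot be told apart.

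USP2 (ENSSSCG00000015120), the deubiquitinase output, fell at FR2 and FR8. Its level in FS animals was 3.41 to 95.2 CPM (median 57.3) at B, 0 to 34.7 (median 10.3) at FR2, 0 to 65.9 (median 3.49) at FR8 and 2.70 to 55.9 (median 25.2) at FR20. In animal 11 no USP2 read was counted at FR2 or FR8, and 574 and 720 counts were found at B and FR20. Among the 70, B (30.8 to 95.2 CPM) was above FR2 (0 to 21.2) and FR8 (0 to 5.87), and FR20 (11.3 to 55.9) was above FR8. USP2 fell by 2.39 ± 0.54 at FR2vB (edgeR adjusted p = 0.000279) and by 3.15 ± 0.64 at FR8vB (adjusted p = 6.83e-05), and increased by 2.02 ± 0.60 from FR8 to FR20 (adjusted p = 0.0303). At FR20vB it was −1.14 ± 0.51 (adjusted p = 0.0732), and it passed there without animal 10 or 11 (adjusted p = 0.0471 and 0.0388). The 70 libraries gave −2.49 at FR2vB, −4.47 at FR8vB, 3.63 from FR8 to FR20 and −0.84 at FR20vB (edgeR adjusted p = 0.0563).

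Within animals the order of the timepoints was much the same. Of the 11 FS animals with 4 libraries nearest to their own timepoint, PER2 by its first identifier was highest at B in 10 and lowest at FR8 in 11. The second PER2 identifier was highest at FR2 in 6 and at B in 5, and lowest at FR8 in 8. PER1 was highest at B in 10 and lowest at FR8 in 8. CRY1 was highest at FR2 and lowest at FR20 in 11 of 11. CRY2 was lowest at FR8 in 11 and highest at FR20 in 9. ARNTL was highest at FR8 in 7 and at FR2 in 4, and lowest at FR20 in 10, while NR1D1 was highest at FR20 in 11. NPAS2 was highest at FR8 in 10 animals, and USP2 was highest at B in 10 and lowest at FR8 in 10, with animal 11 at 0 counts at both FR2 and FR8 and animal 16 highest at FR20. CLOCK had no such order, being highest at FR2 in 5, at FR8 in 3 and at FR20 in 3. Among all 15 FS animals with 4 libraries, PER2 by its first identifier was highest at B in 13 and CRY1 highest at FR2 in 13. NPAS2 was highest at FR8 in 13 and NR1D1 highest at FR20 in 12. The second PER2 identifier was highest at FR2 in 9 of the 15 and at B in 6. Other rows were less uniform in those 15. CRY2 was highest at FR20 in 10, ARNTL highest at FR8 in 9, PER1 lowest at FR8 in 10 and NR1D1 lowest at FR8 in 8.

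In these 11 animals the median span between an animal's highest and lowest timepoint was 4.96 on the log2 scale for PER2 by its first identifier. The span was 3.58 for the second PER2 identifier and 4.46 for USP2. It was 4.46 for PER1, 3.79 for NR1D1, 3.66 for CRY1, 2.999 for CRY2, 2.96 for ARNTL, 2.12 for NPAS2 and 1.78 for CLOCK. USP2 had the widest span in a single animal, 8.46 in animal 11.

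In the 5 CPF animals PER1, PER2, USP2 and NPAS2 changed at FR8. With all libraries, 4 of 10 rows passed at FR8vB (1 up, 3 down; 13.3% of all genes) and 1 at FR8vFR2 (7.21%). No row passed at FR2vB (3.41% of all genes), FR20vB (0.893%) or FR20vFR8 (0.022%), and 0 passed in each with DESeq2. With edgeR, 1, 1 and 4 of the 10 rows had an unadjusted p under 0.05, beside 2735, 2249 and 1484 of 13667 genes. Without the 18 libraries 2 rows passed at FR2vB (14.3% of all genes), 6 at FR8vB (21.6%), 3 at FR20vB (15.3%), 6 at FR8vFR2 (17.5%) and 2 at FR20vFR8 (2.64%).

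PER2 in animals 3, 7, 8, 13 and 18 was 19.4, 54.2, 35.3, 24.7 and 34.5 CPM at B, and in animals 7, 8, 13 and 18 it was 2.37, 0.699, 1.68 and 0.308 CPM at FR8. All 4 libraries at FR8 were below every library at B. PER2 fell by 4.87 ± 1.01 (edgeR adjusted p = 0.00221), and from FR2 to FR8 by 3.52 ± 0.97 (adjusted p = 0.0221). In the same order of animals PER1 was 126, 118, 135, 123 and 197 CPM at B and 27.5, 26.9, 1.92 and 6.47 CPM at FR8, again with no overlap (log2 fold change −3.46 ± 0.98, edgeR adjusted p = 0.0143).

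USP2 in CPF animals was 45.0, 49.9, 25.3, 60.4 and 105 CPM at B and 2.83, 3.75, 3.44 and 1.03 CPM at FR8, and fell by 4.40 ± 1.18 (edgeR adjusted p = 0.0105). NPAS2 was 2.02, 0.687, 0.843, 1.36 and 0.77 CPM at B and 4.47, 7.82, 3.04 and 6.37 CPM at FR8, and increased by 2.32 ± 0.73 (adjusted p = 0.027). Neither gene overlapped between B and FR8. Without animal 18 the PER1 and USP2 calls were lost (log2 fold change −2.98, adjusted p = 0.101, and −3.73, adjusted p = 0.0855), and without animal 7, 8 or 18 the NPAS2 call (2.03 to 2.26, adjusted p from 0.0768 to 0.138).

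At FR20 the library of CPF animal 13 stood apart from the other 4 in several clock genes. PER1 was 158 CPM there and 9.22 to 25.2 CPM in the others, and CRY1 was 37.2 CPM against 2.61 to 11.3 CPM. Of the 10 rows, 7 were above and 2 below the range of the other 4 libraries. The share of all genes outside that range in this library was not computed, so the count does not set the clock genes apart from other genes. Over genes outside the clock this library was nearest to B. The PER1 change at FR20vB was −2.14 ± 0.91 with this library (edgeR adjusted p = 0.221) and −3.34 without the animal (adjusted p = 0.0266). In the 70 libraries CRY1, PER1 and PER2 were the rows that passed at FR20vB in CPF animals, with log2 fold changes of −1.97, −3.42 and −2.04.

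No clock gene passed a test of a difference between the feeding groups. The CPF change minus the FS change passed for 0 of 10 rows at FR2vB (0% of all genes), FR8vB (0%) and FR20vB (0%) with edgeR. DESeq2 gave 0 rows as well. With edgeR, 0 rows had an unadjusted p under 0.05 in any of the 3, beside 397, 468 and 521 of 13667 genes. The widest differences were −1.48 ± 0.85 for CRY1 at FR8vB and 1.65 ± 1.17 for PER2 (second identifier) at FR20vB. CRY1 at FR8vB was 0.09 in FS and −1.39 ± 0.76 in CPF animals (edgeR adjusted p of the difference = 0.999). The interactions of the 70 libraries also passed for 0 rows (0.015%, 0% and 0% of all genes). Standard errors of 0.66 to 1.56 at these interactions leave differences of that size undetectable, so the feeding groups are not shown to be alike.

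At single timepoints, CPF against FS passed for 0 of 10 rows at B (0.0342% of all genes), FR2 (0%) and FR20 (0%), and for 0 of the 8 tested at FR8 (0%), with 0 by DESeq2. An unadjusted p under 0.05 was found for 2 rows at B and 1 at FR8 with edgeR, beside 895 of 11688 and 618 of 11951 genes. At B, CRY1 was 11.1, 37.2, 47.1, 19.3 and 18.7 CPM in CPF animals and 8.41 to 26.1 CPM (median 15.9) in FS animals, and the groups overlapped (log2 difference 0.63 ± 0.28, adjusted p = 0.606). NR1D1 at B was 0.106, 0.945, 0.375, 0.407 and 0.385 CPM in CPF animals and 0 to 2.93 CPM in FS animals (−1.36 ± 0.64, adjusted p = 0.631). PER2 at FR8 had a log2 difference of −2.87 ± 1.38 (CPF minus FS, edgeR adjusted p = 0.955), and the 3 highest FS libraries there were those of animals 17, 19 and 21. No row passed in the 70 libraries either (0.34% of all genes at B, 0% at FR2 and FR8, 0.0167% at FR20).

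Animals that died (FS 2, 16 and 20, CPF 7 and 8) were compared with those that lived, and no clock gene passed. With a term for the feeding group, 0 rows passed at B, FR2, FR8 and FR20 with edgeR and with DESeq2, where 0% of all genes passed with edgeR at each timepoint. There was 1 row at an unadjusted p under 0.05 at B, 0 at FR2, 0 at FR8 and 1 at FR20. Of all genes, 998 of 11688, 656 of 11892, 265 of 11951 and 642 of 12307 had such a p with edgeR. At FR20 PER2 was 3.93, 5.59 and 11.1 CPM in the FS animals that died and 2.81 and 4.28 CPM in the CPF animals that died, against 11.5, 13.9 and 22.997 CPM in the CPF animals that lived, the last in the library of animal 13 that was nearest to B. The 15 FS animals that lived ran from 2.93 to 29.95 CPM and overlapped those that died (the median of all 18 FS animals was 7.80 CPM). The log2 difference was −0.98 ± 0.42 (adjusted p = 0.904). CRY1 at B differed by 0.60 ± 0.28 (adjusted p = 0.578). With 5 animals that died, only wide differences could pass.

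The spread of several clock genes between FS animals was lower without the libraries nearest to another timepoint. It was not lower for every row. The SD of log2 CPM of CLOCK at FR2 was 0.944 with all libraries and 1.07 without those, and that of NR1D1 at B 1.10 and 1.13. With all libraries, the SD of log2 CPM among FS animals was 0.989 for PER1 at B and 2.08 at FR8, and 1.35 for PER2 at B and 1.88 at FR8, where the median of all genes tested was 0.549 at B and 0.592 at FR8. USP2 reached 2.16 at FR8 and CRY1 1.72 at FR20. At FR8 the 90th percentile of all genes was 1.21, and PER1, PER2 and USP2 were above it. In the libraries nearest to their own timepoint the SD fell to 0.463 for PER1 at B and 1.38 at FR8, to 0.553 for PER2 at B and 0.636 at FR8, to 1.37 for USP2 at FR8 and to 0.857 for CRY1 at FR20, and that of all genes was not computed there. Of the libraries nearest to another timepoint, that of animal 9 labelled FR8 had 9 of 10 rows outside the range of the 13 FS libraries labelled FR8 that were nearest to FR8, and that of animal 21 had 8. In the library of animal 10 labelled FR8, 8 of 10 rows lay within that range. The share of all genes outside that range was not computed for any of these libraries, so these counts do not set the clock genes apart from other genes.

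Clock genes that were high together fell into sets over the 88 libraries, with each gene centred on the mean of its animal. PER1 and PER2 correlated at r = 0.80, PER2 and USP2 at 0.81, CRY1 and ARNTL at 0.74 and CRY2 and NR1D1 at 0.71. ARNTL ran against NR1D1 (−0.79), and NPAS2 against USP2 (−0.71) and CRY2 (−0.69). PER1 was close to unrelated to NR1D1 (0.04) and to ARNTL (−0.09). These are descriptions over libraries that share animals and timepoints, some of which were nearest to another timepoint than the one on their label.

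**Figure D4:**
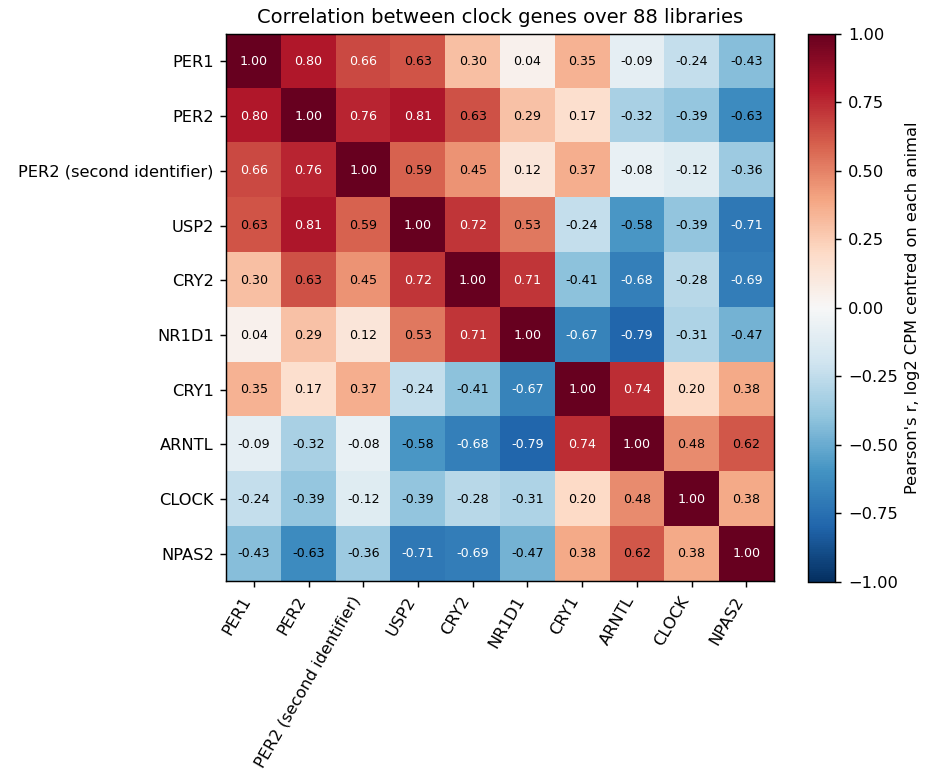
Pearson's r between clock genes over 88 libraries, from log2 CPM centred on the mean of each animal. Red cells join PER1, PER2 by its first identifier and USP2 (0.63 to 0.81) and ARNTL with CRY1 and NPAS2, and blue cells set ARNTL against NR1D1 (−0.79).

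Among all genes tested with a symbol, those whose pattern over the 88 libraries was most like PER1 were KLF9, a transcription factor that glucocorticoids induce (r = 0.91), KMO (0.89) and IGFBP1 (0.88). None of the 20 genes most like PER1 was a clock gene of the lists used here. NR1D1 was most like its paralog NR1D2 (0.74), the E-box repressor BHLHE41 (0.73) and ENTPD3 (0.72), and 4 of its 20 most alike genes were clock genes (NR1D2, BHLHE41, CRY2 and DBP). ARNTL was most like DUSP3 (0.79), RNF125 (0.79) and RBPMS (0.76), with 1 clock gene, CRY1, among 20. USP2 was most like NR1D2 (0.87), PDK2 (0.87) and FAM81A (0.86), with NR1D2 the 1 clock gene among 20.

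Other genes of the clock and its outputs were taken from a list of 24, of which 21 had an identifier and 19 were tested. In FS animals 12 of 19 passed at FR2vB, 4 of them up and 8 down. FR8vB had 10, of which 1 rose and 9 fell, and FR20vB 8, of which 2 rose and 6 fell, beside 41.4%, 39.3% and 33.8% of all genes. At FR8vFR2 6 passed (2 up, 4 down; 28.4% of all genes) and at FR20vFR8 5 (all up; 6.39%). The median log2 fold change of the 19 was −0.67, −0.65 and −0.02 from B to FR2, FR8 and FR20. In CPF animals 3 of 19 passed at FR8vB (all down), near the 13.3% of all genes, and 6 at FR8vFR2 (2 up, 4 down; 7.21% of all genes). With edgeR 0 passed at FR2vB, FR20vB and FR20vFR8. There 7, 1 and 6 of 19 had an unadjusted p under 0.05, beside 2735, 2249 and 1484 of 13667 genes.

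NR1D2 (REV-ERB beta), which acts with NR1D1 on the same elements, was 14.8 to 171 CPM (median 87.8) in FS animals at B, 9.92 to 155 (median 30.9) at FR2, 5.64 to 95.7 (median 15.4) at FR8 and 14.4 to 147 (median 95.5) at FR20. It fell by 1.55 ± 0.36 at FR2vB (edgeR adjusted p = 0.000432) and by 2.14 ± 0.40 at FR8vB (adjusted p = 2.31e-05), and at FR20vB the change was −0.08 ± 0.34 (adjusted p = 0.875). The ranges overlapped at every time. DBP, an output factor that binds D-box elements, fell by 2.16 ± 0.53 at FR2vB and by 1.63 ± 0.55 at FR8vB (edgeR adjusted p = 0.00089 and 0.0145) and increased by 2.59 ± 0.54 from FR8 to FR20 (adjusted p = 0.0016). HLF, of the same family, fell at FR2vB (−1.31 ± 0.41, adjusted p = 0.00721), and NFIL3, which represses at the same elements, fell at FR20vB (−0.71 ± 0.27, adjusted p = 0.0379). In the libraries nearest to their own timepoint HLF also fell at FR8vB (−0.83 ± 0.33, edgeR adjusted p = 0.0311) and DBP also rose at FR20vB (1.26 ± 0.30, adjusted p = 0.000635). NR1D2 was −1.81, −3.13 and 0.11 at the 3 times there, DBP −2.56 and −2.77 at FR2 and FR8, HLF −1.73 at FR2 and NFIL3 −1.14 at FR20.

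BHLHE40, an E-box repressor, increased at FR2vB by 0.93 ± 0.23 (edgeR adjusted p = 0.000823) and fell by 1.29 ± 0.22 from FR2 to FR8 (adjusted p = 3.45e-05). Its paralog BHLHE41 was −0.68 ± 0.38 at FR2vB (adjusted p = 0.145) and increased from FR8 to FR20 by 1.42 ± 0.35 (adjusted p = 0.00768). RORA, which activates at the elements that NR1D1 represses, fell at all 3 times. It changed by −0.67, −1.14 and −0.90 at FR2, FR8 and FR20 (edgeR adjusted p = 0.00995, 4.53e-05 and 0.000893). CIART, a repressor of the activator pair, fell at FR8vB (−1.22 ± 0.42, adjusted p = 0.0168). Among libraries nearest to their own timepoint BHLHE41 fell at FR2vB and FR8vB (−1.04 and −1.19, edgeR adjusted p = 0.00434 and 0.00146) and rose at FR20vB (1.08, adjusted p = 0.00312). There RORA was −0.65, −1.49 and −1.03 at the 3 times, CIART −2.11 at FR8, and BHLHE40 1.15 at FR2vB and −1.62 from FR2 to FR8.

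Of the other genes on the list, the lowest log2 fold change was that of NOCT, a rhythmic output, at FR8 (−2.65) and FR20 (−2.73), both past the threshold, and that of DBP at FR2. The highest was that of BMAL2, the ARNTL paralog, but all 15 FS Baseline libraries held at most 3 BMAL2 counts and 13 held 0, so its fold is not given. In the 70 libraries the counts that passed in FS animals were 13 at FR2vB (4 rose and 9 fell), another 13 at FR8vB (2 rose) and 12 at FR20vB (5 rose), beside 52.5%, 55.1% and 44.9% of all genes.

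**Figure D5:**
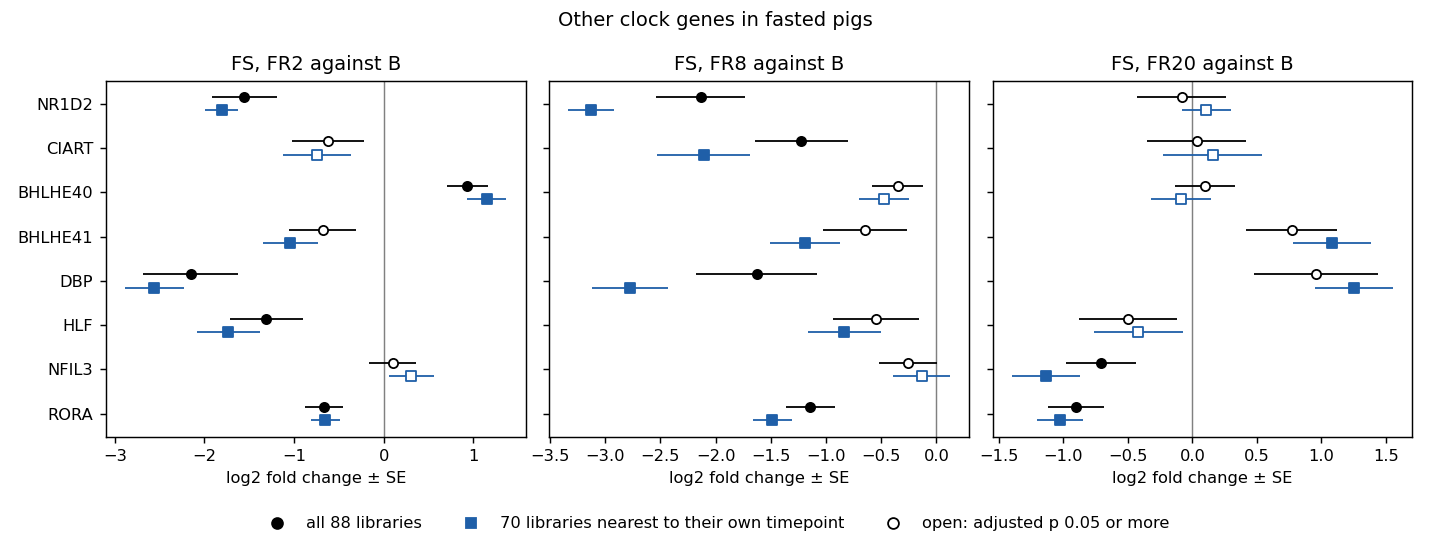
Log2 fold change from Baseline with its standard error for 8 other clock genes in FS animals at FR2, FR8 and FR20, from all 88 libraries (circles) and the 70 libraries nearest to their own timepoint (squares), filled where the adjusted p was under 0.05. NR1D2 and DBP were low at FR2 and FR8 and not at FR20, and RORA was low at all 3 times.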

How the data were processed

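The deposited table holds read counts per pig Ensembl gene, not normalized, which the authors made from single reads of poly(A) selected libraries (CASAVA 1.8.2, TopHat 1.5.0, SAMtools, HTSeq; genome build Sscrofa10.2, per the labels' processing notes). Whether counting used strand is not given in the sources used here.

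Counts were analyzed with edgeR 4.0.16 and limma 3.58.1 in R 4.3.3. A gene was tested where its CPM summed to 10 or more in the fit. Scaling was by TMM, the test was the quasi-likelihood F test of edgeR (2-sided), and p-values were adjusted by Benjamini-Hochberg over all genes tested. The SE of a log2 fold change was taken as its absolute value divided by the square root of the F statistic. CPM values use the TMM-scaled library total, and log2 CPM has a prior count of 2. Changes were fitted on 88 libraries with animal terms and with FR2, FR8 and FR20 coefficients of each feeding group, and an interaction subtracts the FS change from that in CPF animals. Feeding groups, and animals that died or lived (with a feeding term), were compared at each timepoint. Libraries of an animal come from 1 pig, and their residuals correlated at a median of 0.205 (94 of 126 pairs over 0.1; different animals −0.0235, 543 of 2391), so animal terms were used.

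Alternatives were RLE size factors, no filter, filterByExpr, DESeq2 1.42.0 (Wald), edgeR's likelihood ratio test, an added fold threshold, a fit on all 91 libraries, one with no animal terms, and leaving out each animal. The fits without the 18 libraries nearest to another timepoint, and without their 8 animals, were chosen after the data had been seen. The edgeR fit of changes was checked on simulated counts for FS FR2vB, FS FR8vB, CPF FR8vB and the interaction at FR8vB. The other comparisons and the alternatives were not checked in this way.

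The text names every row with a member symbol, 8 tested genes of the other clock list by name (1 more that the rule names is not reported here) and its highest and lowest, and the 3 genes most like PER1, NR1D1, ARNTL and USP2. The members and lists were chosen with earlier results of these data known. Symbols came from a gene name table and the gene tables of the study. No batch is named in the labels, so none was modeled.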

Additional observations from a re-analysis of the deposited data

Results flagged for a closer look

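In groups of 4 to 10 libraries, the gap between the most distant library and its nearest neighbor was set against the range of the group on the log2 scale, and 2 of 40 groups exceeded the limit, where chance gives about 1 in 20. PER1 at B was 196.6 CPM in CPF animal 18 and 118 to 135 CPM in the other 4 CPF animals. CRY1 at FR2 was 50.7 CPM in CPF animal 8, one of those that died, and 36.3 to 39.9 CPM in the other 4.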

How the results depend on the processing

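The number of clock rows that passed held within 1.5 times under RLE size factors, no filter, filterByExpr and an added fold threshold in every comparison. Without the animal block, 6 rows passed at FR2vB, 4 at FR20vB, 2 at FR8vFR2 and 4 at FR20vFR8 in FS animals, and the unblocked fit left the count as it was at FS FR8vB and in each CPF comparison. DESeq2 gave 7 at FS FR2vB and 3 at CPF FR8vFR2, and the likelihood ratio test 6 and 3. Leaving out the 18 libraries, or all libraries of their 8 animals, gave 8 and 8 at FS FR2vB, 7 and 7 at FS FR8vFR2, 3 and 3 at CPF FR20vB, 6 and 6 at CPF FR8vFR2 and 2 and 2 at CPF FR20vFR8. At CPF FR2vB the first gave 2 and the second 0. Leaving out single animals gave 3 to 7 rows at FS FR2vB (6 without animal 4, 7 without animal 10), 5 to 8 at FS FR8vB (5 without animal 23), 1 to 4 at CPF FR8vB (1 without animal 18), 0 to 1 at CPF FR8vFR2 (0 without animal 7, 8, 13 or 18) and 0 to 1 at CPF FR20vB (1 without animal 13). Beyond these constructions, the cause of a moved count was not tested.

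Among the FS and CPF changes from Baseline, signs changed only for values that passed in neither fit. Signs in the other comparisons were not compared. CRY1 at FS FR8vB ran from −0.084 to 0.17 with single animals left out, below 0 without animal 6, 10, 20 or 23 (−0.037, −0.084, −0.0061 and −0.0075). NPAS2 at FS FR20vB was −0.074 with all 91 libraries and ran from −0.12 (without animal 9) to 0.40, and CLOCK there was −0.19 with 91 libraries. At CPF FR2vB, leaving out animals gave −0.10 (without animal 7) to 0.20 for CRY2, −0.081 (without animal 3) to 0.80 for ARNTL and −0.44 to 0.25 for PER2 (second identifier), which was 0.25 and 0.096 without animal 7 or 8. At CPF FR20vB CLOCK was −0.34 without the 18 libraries and −0.50 without their animals, and −0.50 (without animal 13) to 0.64 with animals left out. ARNTL there ran from −1.07 to 0.0085 (without animal 8), and PER2 (second identifier) was 0.065 with DESeq2, 0.038 with the likelihood ratio test and −1.06 to 0.61 with animals left out, at 0.61 and 0.31 without animal 7 or 8.

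Depth limits NR1D1, CLOCK and the second PER2 row most, since many of their libraries are at or under 3 counts. CPF results rest on 4 or 5 animals, and 18 libraries were nearest to another timepoint than the one on their label.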

Other observations

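The 4 libraries left out were read with CPM scaled to their own totals. The 3 FS Baseline libraries without albumin (animals 17, 19 and 21) held 33.7, 269 and 114 CPM of PER1, 6.60, 14.5 and 15.3 CPM of PER2, 28.9, 24.0 and 30.3 CPM of CRY1 and 14.4, 19.3 and 18.9 CPM of CRY2. ARNTL was 3.59, 3.64 and 4.18 CPM, CLOCK 3.84, 3.34 and 7.55 CPM and NPAS2 4.33, 7.80 and 8.11 CPM in them. NR1D1 was 4.13, 4.81 and 8.42 CPM, and USP2 77.6, 57.4 and 59.6 CPM. In all 3 the CLOCK and NR1D1 values were above the highest of the 15 FS Baseline libraries used (2.73 and 2.93 CPM). Those highest values use TMM-scaled totals, so the scales are not the same. The FR8 library of CPF animal 3 held 0 counts in all 10 rows, of 4388 in all.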
